A study of Mus musculus with 12 samples.

Results

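The Hes and Hey genes of the mouse encode a family of basic helix-loop-helix repressors, and all 9 members named Hes or Hey with a gene on the array (Hes1, Hes2, Hes3, Hes5, Hes6, Hes7, Hey1, Hey2 and Heyl) were taken by name, of 21307 named genes on the array; 6368 further transcripts had no gene name. The members were read by 12 of 41174 probes. RNA came from the livers of male C57BL/6 mice, 8 to 10 weeks old, whose adrenals had been removed, so that every group lacked its own glucocorticoids. There were 4 groups of 3 arrays each. HESKOL mice were killed 6 h after an intraperitoneal injection of the synthetic glucocorticoid dexamethasone at 1 mg/kg, or were untreated. Wild-type mice were given the same injection or were untreated. HESKOL is the labels' name for a Hes1 knockout. The part of Hes1 that was altered and the driver of the deletion are not given in the sources used here, and the labels record no vehicle injection.

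Hes and Hey proteins bind DNA as dimers and recruit histone deacetylases, and Hes proteins also recruit corepressors of the TLE family. Several of them are the direct targets by which the Notch receptors act: the released intracellular part of Notch joins the DNA-binding protein RBPJ and switches on Hes1, Hes5, Hey1, Hey2 and Heyl. In liver, Hes1 is best known from bile duct formation, and Hey1, Hey2 and Heyl from blood vessels, where they lie downstream of Notch in endothelial and mural cells.

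The probes are single-stranded 60-base oligonucleotides, and 2 of their sequences are shown here. The Hes1 probe spans chr16:29738743-29739038 on the plus strand of the mouse build mm7, and its 60 bases cover 296 bases of genome, so it crosses an intron. One of the 2 Hes6 probes lies at chr1:91320176-91320235 on the minus strand of mm7. The 2 sequences are printed 5′ to 3′ because they read the gene named in the genotype and the member that moved most across both genotypes, and the capitals mark the longest run of bases they have in common:
Hes1 probe: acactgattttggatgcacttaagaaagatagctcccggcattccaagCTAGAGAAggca
Hes6 probe: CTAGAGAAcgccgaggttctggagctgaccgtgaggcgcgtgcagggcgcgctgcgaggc
That run is 8 bases long. Among all probes of different members the longest shared run was 12 bases, between a Hes6 and a Heyl probe. The 2 probes of Hes6 shared at most 6 bases, so a short run does not show that members were read separately. Probes were compared only with each other, not with the transcripts of other members. The other Hes6 probe lies at chr1:91319132-91319191 on the minus strand, and the 2 Heyl probes at chr4:122694378-122694437 and chr4:122692891-122692950 on the plus strand. Hey1 was read at chr3:8669867-8669926 on the minus strand, Hes5 at chr4:153951780-153951839 on the plus strand, and Hes2 at chr4:151151839-151151898 and chr4:151149742-151149889 on the plus strand.

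Values below are log2 levels: the log2 of the scanner's background-subtracted, processed Cy3 signal minus the log2 of the 75th percentile of that signal on the same array, so that a level of 0 is the 75th percentile and a difference of 1 is a doubling. To be tested, a gene needed a group in which the scanner software called its probe well above background on each of the 3 arrays, and 18643 passed, 15947 of them named genes and 2696 transcripts with no gene name. All are called genes below. Where a gene had several probes, the brightest stood for it. Group means were compared with limma over all 12 arrays, with p-values adjusted by the Benjamini-Hochberg method over all tested genes and a threshold of 0.05. Between 61.5% and 71.9% of probes were well above background on an array, and the 75th percentile lay between 897 and 1614 signal units. The number of arrays limits the precision of every value. The arrays lay on 3 slides, and slides and groups were not balanced. All HESKOL dexamethasone arrays were on slide 3, beside 1 wild-type dexamethasone array (replicate 3). The 2 other wild-type dexamethasone arrays shared slide 2 with 2 untreated HESKOL arrays, and the last untreated HESKOL array (replicate 1) shared slide 1 with the untreated wild-type arrays. Wild-type dexamethasone replicate 1 stood apart from its group in the standard glucocorticoid-induced gene Fkbp5, with a level of −0.998 against 3.45 and 3.98 in replicates 2 and 3.

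Of the 9 members, 6 could be tested: Hes1, Hes2, Hes5, Hes6, Hey1 and Heyl. Hes1, Hes6, Hey1, Heyl and Hes2 were well above background on all 12 arrays with every probe they had, and Hes5, a Notch target best known from neural progenitors, on 11. The other 3 members were at or near background in these livers. Hes3, known mainly from the developing nervous system, was well above background on 0 of 12 arrays, with levels from −8.03 to −6.71. Hes7, which drives the segmentation clock of the embryo, was well above background on 3 arrays, 1 in each group except untreated wild-type, and Hey2, a Notch target of vessels and heart, on 3 arrays, 1 in each group except wild-type dexamethasone. No fold change is given for these 3. Since each array reads a piece of whole liver, fewer cells of a type and less RNA per cell cannot be told apart for any member. The plot of levels by group shows all 9 members.

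**Figure D1:**
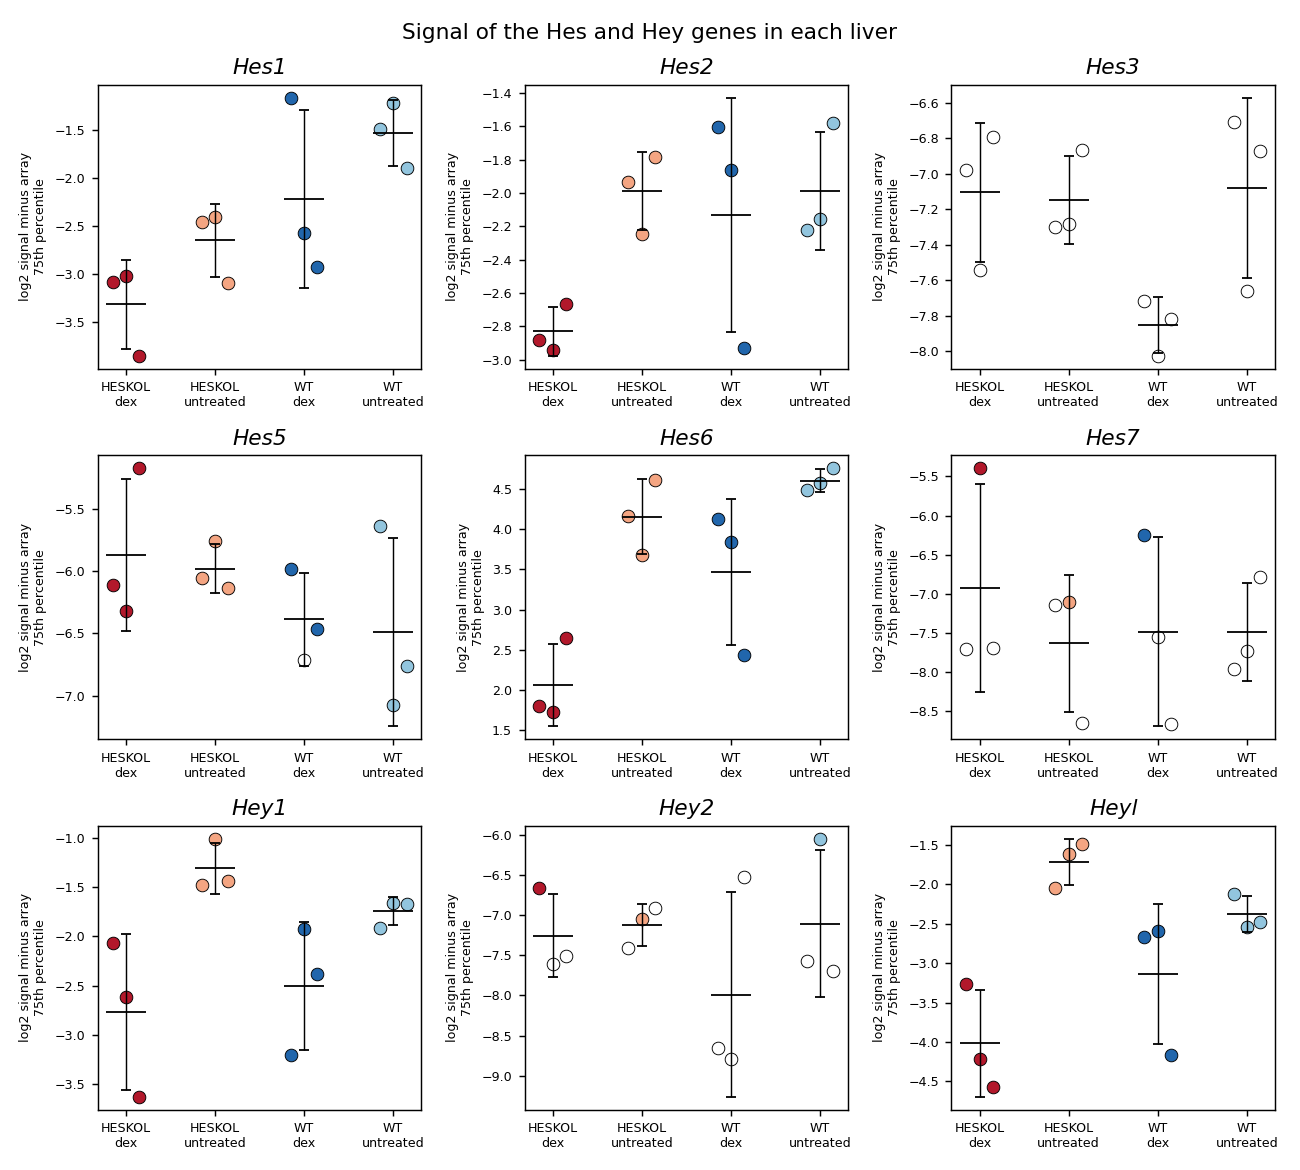
Log2 level relative to the array's 75th percentile (vertical axis) of each Hes and Hey gene in each array, with groups along the horizontal axis and 3 arrays each. Filled points are well above background and open points are not; bars are the group mean and SD. Hes6 is lowest in the HESKOL dexamethasone group, with a mean of 2.06, and Hes3 has 12 open points.

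With dexamethasone, 3 members were lower in HESKOL liver: Hes6, Heyl and Hey1. They were between 2.75- and 4.93-fold lower in dexamethasone-treated than in untreated HESKOL livers. None of the 6 tested members was called higher in that comparison. The treated and untreated HESKOL arrays lay on different slides, and with slide as a fixed block none of the 3 was called (limma adjusted p = 0.894, 0.862 and 0.789). Over all tested genes, 7.82% passed the same test in either direction, and 4.21% passed it downward.

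Hes6 encodes a family member that, in mouse, does not repress the usual targets but hinders Hes1, and it is a textbook gene of neural and muscle differentiation. Its brighter probe had levels of 1.80, 1.73 and 2.64 in dexamethasone-treated HESKOL livers and 4.17, 3.68 and 4.61 in untreated HESKOL livers. All 3 treated arrays lay below all 3 untreated ones. Hes6 was 4.27-fold lower with dexamethasone, a log2 change of −2.09 (SE 0.43, 95% interval −3.03 to −1.16, limma adjusted p = 0.0173). The adjusted p was above 0.05 without HESKOL dexamethasone replicate 1 (0.0535) or 2 (0.0698) and without HESKOL untreated replicate 1 (0.0645) or 3 (0.0516). The second Hes6 probe, printed above, had levels of −0.81, −1.37 and −0.14 in the treated livers and 1.63, 1.13 and 1.32 in the untreated ones. Its log2 change was −2.14 (limma adjusted p = 0.0215), and the 2 probes correlated across the 12 arrays with a Pearson r of 0.970. The Hes6 signal itself ran from 3440 to 34064 units, with a median of 19052, and no spot of any member was saturated.

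Heyl, a Notch target known from vascular smooth muscle, had levels of −3.26, −4.22 and −4.57 in dexamethasone-treated HESKOL livers and −2.05, −1.61 and −1.49 in untreated HESKOL livers. The groups did not overlap. Heyl was 4.93-fold lower with dexamethasone, a log2 change of −2.30 (SE 0.44, 95% interval −3.26 to −1.34, limma adjusted p = 0.0130). The call was lost without HESKOL dexamethasone replicate 2 (adjusted p = 0.0562) or 3 (0.0516) or HESKOL untreated replicate 2 (0.0575). Its second probe gave levels of −5.04, −5.71 and −5.80 in the treated livers against −3.50, −3.44 and −4.28 in the untreated ones, a log2 change of −1.78 (limma adjusted p = 0.0319). The 2 Heyl probes correlated with a Pearson r of 0.859 over the 12 arrays.

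Hey1, a Notch target of the endothelium, had levels of −2.06, −2.62 and −3.63 in dexamethasone-treated HESKOL livers and −1.48, −1.01 and −1.44 in untreated HESKOL livers. The groups again did not overlap, with the closest arrays 0.59 apart. Its log2 change was −1.46 (SE 0.40, 95% interval −2.34 to −0.58, limma adjusted p = 0.0491), or 2.75-fold lower. This call lay at the threshold, and 7 of 11 other settings lost it. The adjusted p was 0.0522 with each probe tested by itself, 0.0552 with the replicate number as a block, 0.0570 after quantile normalization, 0.0682 after median scaling, 0.0754 without the filter, 0.0963 without scaling and 0.789 with slide as a fixed block. It was 0.168 without HESKOL untreated replicate 2. Leaving out 1 array kept the call only for HESKOL dexamethasone replicate 1 and wild-type dexamethasone replicates 1 and 2.

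The remaining members of this comparison were not called. Hes2, a repressor of the same family with few known roles in liver, had levels of −2.88, −2.94 and −2.67 in dexamethasone-treated and −1.94, −2.25 and −1.78 in untreated HESKOL livers. These arrays did not overlap, but the log2 change of −0.84 did not pass (SE 0.33, limma adjusted p = 0.140), and the second Hes2 probe changed by −0.044. The 2 Hes2 probes correlated with a Pearson r of 0.437, so they disagree on the size of any change. Hes1 had a log2 change of −0.67 (SE 0.43, limma adjusted p = 0.369) and Hes5 of 0.11 (limma adjusted p = 0.890). In all, 4 of 6 tested members had groups that did not overlap, against 34.3% of all tested genes.

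In wild-type liver Hes6, Heyl and Hey1 had smaller changes. Of the 6 tested members 1, Hes6, had an unadjusted p under 0.05, as did 2193 of 18643 tested genes. By adjusted p 0 members passed the limma test, where 0.198% of all tested genes passed. Without wild-type dexamethasone replicate 1, the array that stood apart, 6.06% of all tested genes passed. Hes6 had levels of 4.13, 3.84 and 2.43 in dexamethasone-treated and 4.48, 4.57 and 4.76 in untreated wild-type livers. Replicate 3, on slide 3, lay well below replicates 1 and 2, and the change was −1.14 (SE 0.43, limma adjusted p = 0.336). Heyl had levels of −2.67, −2.59 and −4.16 in dexamethasone-treated and −2.12, −2.54 and −2.48 in untreated wild-type livers, a change of −0.76 (SE 0.44, limma adjusted p = 0.537). Hey1 had levels of −3.20, −1.92 and −2.38 in dexamethasone-treated and −1.91, −1.66 and −1.67 in untreated wild-type livers, a change of −0.76 (SE 0.40, limma adjusted p = 0.502). The dexamethasone-treated arrays lay below the untreated ones without overlap for these 3 of 6 members, against 12.1% of all tested genes. For Heyl and Hey1 the closest arrays were 0.044 and 0.014 apart. The second probes of Hes6 and Heyl did overlap in wild-type liver, with changes of −1.16 and −0.28.

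Whether dexamethasone acted more strongly in HESKOL than in wild-type liver was tested as the difference of the 2 effects. In limma 0 of 6 members passed, where 0.0161% of all tested genes did. An unadjusted p under 0.05 was found for 1 member and for 1237 of 18643 tested genes. The difference was −1.54 for Heyl (SE 0.62, unadjusted p = 0.0295, limma adjusted p = 0.682), −0.95 for Hes6 (limma adjusted p = 0.851) and −0.70 for Hey1. A call in HESKOL liver and none in wild-type liver is therefore not shown to differ between the genotypes. With both genotypes averaged, the same 3 members were lower with dexamethasone, against 11.8% of all tested genes called in either direction and 6.51% called lower. The averaged log2 change was −1.62 for Hes6 (3.06-fold lower, SE 0.30, limma adjusted p = 0.00951). It was −1.53 for Heyl (2.89-fold lower, SE 0.31, limma adjusted p = 0.0132), although its second probe, tested by itself, missed the threshold at −1.03 (limma adjusted p = 0.0504). Hey1 changed by −1.11 (2.16-fold lower, SE 0.28, limma adjusted p = 0.0309), a call that was kept without HESKOL dexamethasone replicate 1 or wild-type dexamethasone replicate 1 or 2 and lost without any other array (adjusted p up to 0.0746). With slide as a fixed block the averaged changes were −0.57 for Hes6, −0.84 for Heyl and −1.40 for Hey1, and limma called 0 members and 0 of all tested genes, with 928 genes at an unadjusted p under 0.05.

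**Figure D2:**
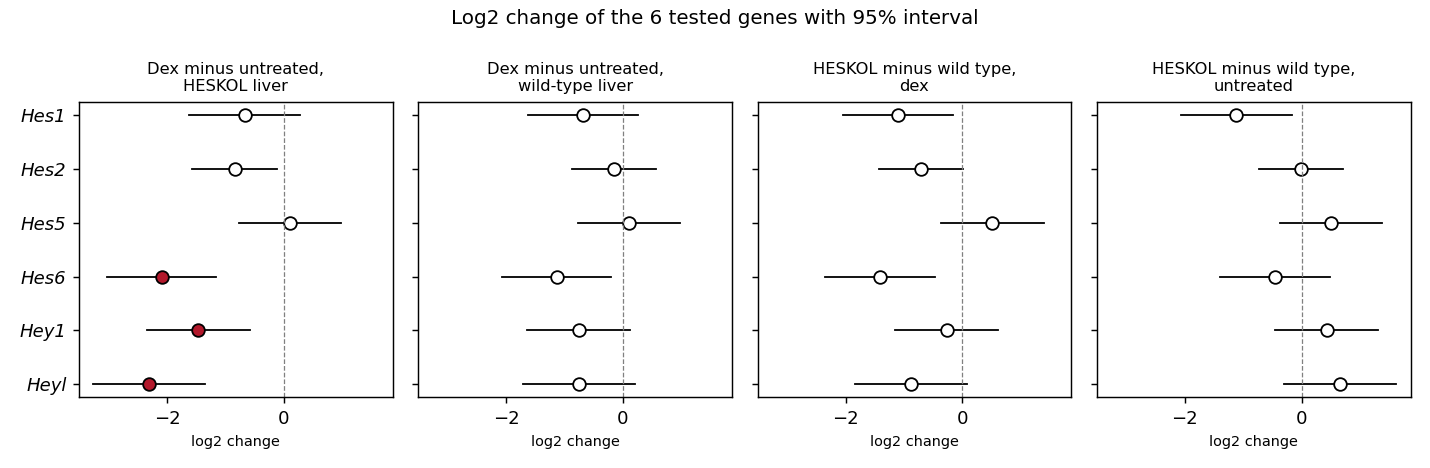
Log2 change of the 6 tested members (points) with 95% intervals (lines) in 4 comparisons, 1 panel each, with the change on the horizontal axis in log2 units and 0 as no change. Red filled points have a limma adjusted p under 0.05: Hes6, Heyl and Hey1 in the HESKOL dexamethasone comparison, at −2.09, −2.30 and −1.46. No point in the other 3 panels is filled.

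Hes6 and Heyl also separated by slide. For Hes6, the 4 arrays of slide 3 lay between 1.73 and 2.64 and the 8 arrays of slides 1 and 2 between 3.68 and 4.76. Heyl lay between −4.57 and −3.26 on slide 3 and between −2.67 and −1.49 on the other slides. Hes2 lay between −2.94 and −2.67 on slide 3 and between −2.25 and −1.58 on the others. For these 3 members every array of slide 3, wild-type or HESKOL, lay below every other array, as did 4.84% of 18626 tested genes with a value on all arrays. The second Hes6 probe separated in the same way, and the second probes of Heyl and Hes2 overlapped. Hey1 and Hes1 overlapped between slide 3 and the others. All 4 arrays of slide 3 were dexamethasone-treated, and the untreated HESKOL arrays lay on slides 1 and 2, so slide and treatment cannot be told apart within HESKOL liver. With slide as a fixed block, a fit that rests on the wild-type dexamethasone arrays being split over slides 2 and 3, the change in HESKOL liver was −0.54 for Hes6 (limma adjusted p = 0.894), −0.93 for Heyl (limma adjusted p = 0.862) and −1.73 for Hey1 (limma adjusted p = 0.789), and limma called 0 of 18643 genes, with 1193 at an unadjusted p under 0.05. With slide as a random block the 3 calls held. The estimated correlation within a slide was negative, at −0.062, so this fit takes out no slide effect. It called 12.8% of all tested genes in HESKOL liver with dexamethasone, against 7.82% without the block. It therefore cannot show that the 3 calls hold apart from slide.

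Slide 2 alone carried treated and untreated livers, of different genotypes. There, the 2 wild-type dexamethasone arrays minus the 2 untreated HESKOL arrays gave −1.34 for Hey1 and −1.08 for Heyl, but −0.16 for Hes6. Of these 2 wild-type arrays, 1 was replicate 1, which stood apart from its group in Fkbp5. The fit with slide as a fixed block rests in part on the same array. On slide 3, the 3 HESKOL dexamethasone arrays differed from the wild-type dexamethasone array by −0.37 for Hes6, 0.15 for Heyl, −0.39 for Hey1 and 0.10 for Hes2. The plot of levels by slide shows this.

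**Figure D3:**
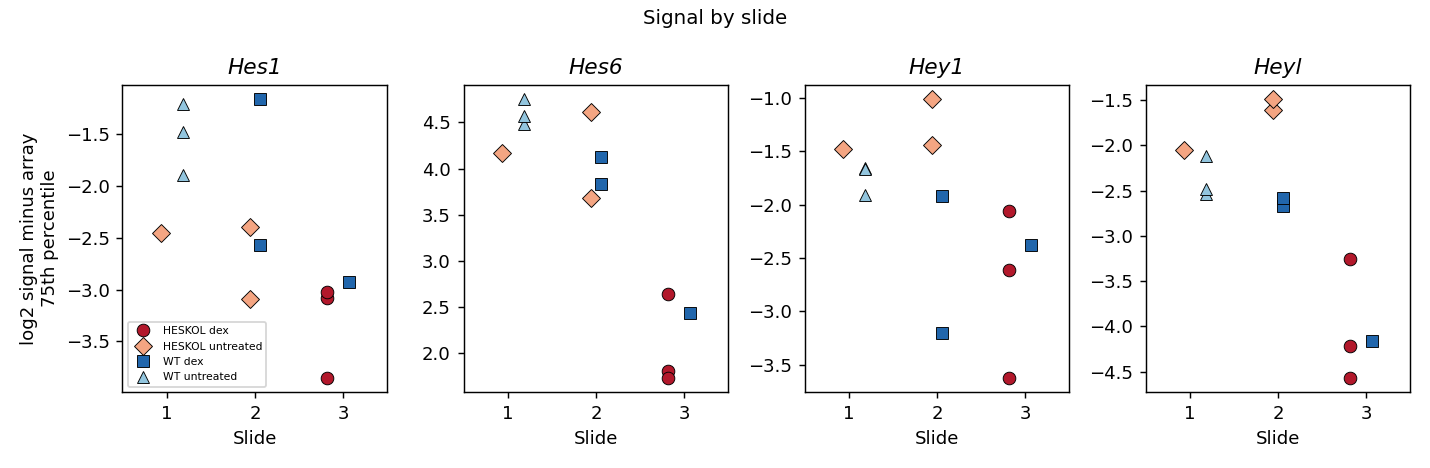
Log2 level of Hes1, Hes6, Hey1 and Heyl (1 panel each, vertical axis) in each array by slide (horizontal axis), with groups by colour and marker. For Hes6 and Heyl the wild-type dexamethasone array of slide 3, at 2.43 and −4.16, sits with the HESKOL dexamethasone arrays and apart from the 2 other arrays of its own group.

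Hes1, the gene named in the genotype, was lower in HESKOL livers than in wild-type livers under both treatments. Its levels were −3.08, −3.02 and −3.85 in dexamethasone-treated HESKOL livers, −2.46, −2.40 and −3.09 in untreated HESKOL livers, −1.16, −2.57 and −2.92 in dexamethasone-treated wild-type livers, and −1.49, −1.22 and −1.90 in untreated wild-type livers. No HESKOL array overlapped the wild-type arrays of the same treatment. Averaged over both treatments, Hes1 in HESKOL livers was at 46.4% of wild-type, a log2 change of −1.11 (SE 0.30, 95% interval −1.78 to −0.44). That passed an exact two-sided permutation test of the arrays within treatment (p = 0.005, the smallest it can give) but not the test over all genes (limma adjusted p = 0.246, unadjusted p = 0.00382). Of all tested genes, 0.241% passed it. On slide 1 the HESKOL array differed from the wild-type arrays by −0.93 and on slide 3 the HESKOL arrays differed from the wild-type one by −0.40. The probe remained well above background on all 6 HESKOL arrays, and whether it lies in the deleted part is not known, so its level says little about whether the labels are right.

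The Hes1 response to dexamethasone was −0.67 in HESKOL liver and −0.69 in wild-type liver (limma adjusted p = 0.369 and 0.577, exact two-sided permutation p = 0.3 and 0.4, smallest possible 0.1). The difference of these effects was 0.018. From low to high, the group means of Hes1 ran from HESKOL dexamethasone, −3.32 ± 0.46, through HESKOL untreated, −2.65 ± 0.38, and wild-type dexamethasone, −2.22 ± 0.93, to wild-type untreated, −1.53 ± 0.34 (SD, n = 3 each), and no neighbours in this order differed past the threshold where they were tested. Averaged over genotypes the dexamethasone change was −0.68 (limma adjusted p = 0.171, exact two-sided permutation p = 0.09). Without wild-type dexamethasone replicate 1, the array that stood apart, it was −0.94 and passed (limma adjusted p = 0.0144). In that setting 23.0% of all tested genes passed, against 11.8% with every array kept. With slide as a fixed block the averaged Hes1 change was 0.22 and did not pass.

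Between genotypes limma called 0 of the 6 tested members. In treated liver 2 members and 2933 of 18643 tested genes had an unadjusted p under 0.05, and in untreated liver 1 member had. In untreated liver 0% of tested genes passed and 297 had an unadjusted p under 0.05. On the log2 scale of HESKOL over wild-type, Hes1 was at −1.12, Hey1 at 0.44 and Heyl at 0.66. These 3 of 6 members did not overlap, against 6.38% of all tested genes. For Heyl the closest arrays were 0.068 apart, and its second probe did overlap. The second Hes6 probe did not overlap, unlike the brighter one. In dexamethasone-treated liver, where 1.13% of tested genes passed, the log2 change was −1.10 for Hes1 (limma adjusted p = 0.248), −1.41 for Hes6 (SE 0.43, limma adjusted p = 0.143) and −0.88 for Heyl (limma adjusted p = 0.361), and only Hes1 did not overlap, against 18.2% of all tested genes. Without wild-type dexamethasone replicate 3, the only wild-type array on slide 3, the change of Hes6 was −1.92 and passed (limma adjusted p = 0.0296). In that setting 1.41% of all tested genes passed. The treated genotypes then shared no slide, so genotype and slide cannot be told apart there. On slide 3 alone the Hes6 difference was −0.37. Hes5 lay between −7.08 and −5.18 over the 12 arrays and had no change larger than 0.52 in these comparisons.

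The Notch pathway was read around the family. Of the 4 Notch receptors, all tested, 1 was called with dexamethasone in HESKOL liver, against 7.82% of all tested genes. At an unadjusted p under 0.05 there were 3 receptors, and 4595 of 18643 tested genes. In wild-type liver 2193 tested genes had an unadjusted p under 0.05 with dexamethasone. The receptor called in HESKOL liver was Notch4, the receptor of the endothelium. Its levels were 0.89, 0.53 and 0.37 in dexamethasone-treated and −0.83, −0.69 and −1.29 in untreated HESKOL livers, and it rose by 1.53 on the log2 scale (SE 0.28, limma adjusted p = 0.0114). Notch2, the receptor tied to bile duct formation, had a log2 change of −0.75 that missed the threshold (limma adjusted p = 0.0537). Of 6 ligands on the array 4 were tested (Dll1, Dll4, Jag1 and Jag2), and limma called 0 with dexamethasone in either genotype (1 had an unadjusted p under 0.05 in HESKOL liver). Of 17 tested genes of Notch processing and trafficking 0 were called in either genotype, with 2 at an unadjusted p under 0.05 in each. Of 11 tested nuclear partners 0 were called, with 0 at an unadjusted p under 0.05 in HESKOL liver and 2 in wild-type liver, and Rbpj had a log2 change of 0.34 in HESKOL liver. Of 11 tested TLE corepressors and deacetylases 1 was called in HESKOL liver, near the 7.82% of all tested genes called there, and 3 had an unadjusted p under 0.05. The called one was Tle1, a corepressor that Hes proteins recruit, 2.83-fold higher with dexamethasone (limma adjusted p = 0.0338). Its levels were 4.21, 4.30 and 3.87 in treated and 2.57, 2.21 and 3.11 in untreated HESKOL livers. With slide as a fixed block neither Notch4 nor Tle1 was called, as no gene was in that comparison.

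Of 3 related genes outside the family, 2 were tested. Bhlhe40, a clock-linked repressor with the same Orange domain, had levels of 1.14, 0.63 and 1.36 in dexamethasone-treated HESKOL livers, 3.06, 3.06 and 3.03 in untreated HESKOL livers, 4.78, 3.59 and 3.30 in dexamethasone-treated wild-type livers, and 3.46, 3.29 and 2.86 in untreated wild-type livers. It was lower in the treated HESKOL livers than in every other array. Its log2 change was −2.85 between genotypes under dexamethasone (SE 0.36, limma adjusted p = 0.00578) and −2.01 with dexamethasone in HESKOL liver (limma adjusted p = 0.0102). The wild-type dexamethasone array of slide 3 had a level of 3.30, close to the untreated arrays. With slide as a fixed block 0 genes were called with dexamethasone in HESKOL liver, so the Bhlhe40 call there was lost. Bhlhe41 was not called in either comparison. Between genotypes under dexamethasone it was lower, with an unadjusted limma p under 0.05. It was well above background on 1 of the 3 arrays of HESKOL dexamethasone. Helt could not be tested. Of 6 tested textbook targets of Hes1, such as the adipogenic receptor Pparg, limma called 0 in each comparison, with 0 at an unadjusted p under 0.05. As a check of the injection, the glucocorticoid receptor and its standard targets were read. Of these 12 genes, 8 were called higher in HESKOL liver and 5 in wild-type liver. Over all tested genes 7.82% and 0.198% were called in either direction. Wild-type dexamethasone replicate 1 had an Fkbp5 level below the untreated wild-type mean of 0.290, so the counts do not check the injection for each array.

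Because Hey1 and Heyl belong to vessels, the markers of endothelial cells were read beside them. Over all tested genes, 7.82% were called with dexamethasone in HESKOL liver, and 4595 of 18643 had an unadjusted p under 0.05. The marker counts below stand beside these. All 9 endothelial markers were tested. In HESKOL liver with dexamethasone, Lyve1 rose by 2.62 on the log2 scale and Kdr, a receptor for the growth factor VEGF, had a change of −1.56 (limma adjusted p = 0.0258), and the other 7 were not called. The summed linear level of the 9 markers, in multiples of the 75th percentile, was 35.7 to 42.4 in HESKOL dexamethasone, 38.7 to 43.1 in HESKOL untreated, 36.0 to 41.6 in wild-type dexamethasone and 29.3 to 43.7 in wild-type untreated livers. Much of this sum came from Lyve1 and Clec4g, whose log2 changes had opposite signs (−0.78 for Clec4g, limma adjusted p = 0.0879), so it says little of the other markers. Of the 9 log2 changes 6 were negative, with a median of −0.077. Like Hes6 and Heyl, Kdr was low on the wild-type dexamethasone array of slide 3, at 0.06, against 1.51 and 1.14 on the other arrays of its group. The 7 stellate and smooth muscle markers summed to 16.6 to 26.9 in HESKOL dexamethasone and 16.9 to 21.3 in HESKOL untreated livers, and 0 of 7 were called (1 at an unadjusted p under 0.05). The summed level of the 7 lymphocyte markers was 0.424 to 0.675 in HESKOL dexamethasone and 1.37 to 2.52 in HESKOL untreated livers. All 7 had negative log2 changes, with 1 called (Cd79a, −1.51, limma adjusted p = 0.0390) and 6 at an unadjusted p under 0.05. The 6 Kupffer and macrophage markers summed to 39.1 to 101 in HESKOL dexamethasone and 68.9 to 153 in HESKOL untreated livers. All 6 had negative log2 changes, with a median of −0.88, 1 called (Adgre1, −1.60, limma adjusted p = 0.0403) and 3 at an unadjusted p under 0.05. The 6 cholangiocyte markers summed to 5.95 to 20.8 in HESKOL dexamethasone and 19.1 to 94.2 in HESKOL untreated livers. Of the 5 tested 0 were called, with 1 at an unadjusted p under 0.05. Most of this sum came from Spp1, with mean levels of 3.43 in treated and 5.18 in untreated HESKOL livers, so it says little of the other markers. Among the 5 tested, 3 log2 changes were negative and 2 positive, with a median of −0.098. The 6 hepatocyte markers were all well above background on every array. They summed to 1315 to 1810 in HESKOL dexamethasone and 872 to 1491 in HESKOL untreated livers. With dexamethasone in HESKOL liver 1 was called higher and 1, Ttr, lower, with 3 at an unadjusted p under 0.05. The sum includes Tat, which is also one of the standard glucocorticoid targets, so it does not measure hepatocyte content alone. The part of these cell types in the changes of Hes6, Hey1 and Heyl was not tested.

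The genes most like each member over the 12 arrays were ranked by Pearson correlation among 14586 genes. All arrays share their slides and treatments, so these values describe the arrays only. Hes6 was most like Depdc7 (r = 0.979), Otof (r = 0.976) and Plk5 (r = 0.971), and Heyl most like Elk3 (r = 0.958), Reep1 (r = 0.958) and Slc2a4 (r = 0.956). Hey1 was most like Ap3m2 (r = 0.937), Tal1 (r = 0.922) and Zeb2 (r = 0.918), and Hes1 most like Col5a3 (r = 0.883), Synpo2 (r = 0.883) and Pacsin2 (r = 0.879). The first genes for Hes2 and Hes5 were Apol6 (r = 0.985) and Faap20 (r = 0.833). Between members, r was 0.895 for Hes2 and Hes6, 0.787 for Hes6 and Heyl, and 0.782 for Hey1 and Heyl.

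Promoter sequence was looked up for the members in RefSeq windows, and 4 of 9 had an entry: Hes5, Hes6, Hes7 and Hey2. Of the 3 lowered members only Hes6 had one, with 2 windows. The window of the more downstream start is printed, chosen by position, from 250 bases before its start, on the minus strand of GRCm38.p6 at chr1:91413223-91413472, 5′ to 3′. Capitals mark the match to the N-box, the site CACNAG that Hes proteins bind:
Hes6 promoter: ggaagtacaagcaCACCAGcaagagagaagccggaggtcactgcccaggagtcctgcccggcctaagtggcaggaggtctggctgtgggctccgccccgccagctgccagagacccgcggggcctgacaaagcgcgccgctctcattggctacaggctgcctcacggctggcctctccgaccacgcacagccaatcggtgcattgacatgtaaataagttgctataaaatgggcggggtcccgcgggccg
Both strands were searched. The N-box occurred 1 time here, and 36.7% of 32851 windows of the same length hold it. The E-box CACGTG, the class C site CACGNG, the RBPJ core TGGGAA and the glucocorticoid receptor hexamer AGAACA each had 0 matches, and 6.02%, 23.5%, 21.6% and 16.1% of all windows hold them. CACGTG is also a match to CACGNG. The other Hes6 window held 1 match to CACGNG and 0 to the N-box and the other motifs.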

How the data were processed

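Livers were profiled on single-colour Agilent mouse arrays, with 500 ng of total RNA labelled with Cy3 per the labels' protocols. The scanner software was Agilent Feature Extraction, version 9.5.3.1 per the file headers and 9.5 per the submitters' processing notes. The deposited values are intensity per spot: the processed signal that the authors' scanner software had background-subtracted. The deposited value table held the same processed signal, without scaling between arrays. Positions are those of the array design, build mm7. From there, log2 of the processed signal was scaled to each array's 75th percentile over non-control spots, spots flagged as outliers were left out, and spots of 1 probe were averaged. Of 41174 probes, 22951 were named by accession, 9768 by symbol or synonym through RefSeq, 2011 kept the file's name and 6444 had none. limma 3.58.1 in R 4.3.3 fitted 4 group means over 12 arrays (residual degrees of freedom 8) and 7 comparisons. It was tested on simulated data. The family and the gene lists were chosen with earlier results of these data known. Every member is named. Of the lists, genes that a result turns on are named, and some genes past the threshold are only counted. The values of 1 listed gene are not reported here. The labels call replicates separate samples but do not say how RNA was pooled, so p-values measure the spread between these arrays. Replicate numbers did not pair the arrays: correlations of same-numbered deviations ran from −0.40 to 0.62, with 6 of 18 over 0.1. Alternatives tried were quantile, median and no scaling, normexp, no filter, mean of all probes, intensity trend with robust estimation, slide as a fixed or random block, a replicate block, and leaving out each array. Testing each probe by itself was added after the data were seen.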

Additional observations from a re-analysis of the deposited data

How the results depend on the processing

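With slide as a fixed block, the count of called members in HESKOL liver with dexamethasone was 0 and with both genotypes averaged 0, against 3 and 3, and Hes1 changed to 0.48 in HESKOL liver and 0.22 averaged. In the same setting, Hes2 changed to 0.38 in HESKOL liver, 0.33 in wild-type liver and 0.36 averaged for dexamethasone, to 0.097, 0.049 and 0.073 for HESKOL against wild-type (treated, untreated, averaged) and to 0.048 for the difference of effects. Hes6 changed to 0.062 for the difference, Hey1 to −0.061 for the averaged genotype comparison, and Heyl to 0.15 in treated liver and 0.24 averaged between genotypes. The cause was not tested. In HESKOL liver the count was 2, without Hey1, under quantile, median and no scaling, without the filter and with the replicate block. With slide as a random block, Hes1 had a difference of effects of −0.050, Hes5 of −0.0095, and Hes2 changed by 0.029 between untreated genotypes, where the mean of all probes gave 0.065. The unscaled table gave −0.22 for Hes5 with dexamethasone in wild-type liver and −0.096 averaged, and called Hes2 too, making 4 averaged members. With the replicate block, Hey1 with dexamethasone in HESKOL liver was −1.46 (limma adjusted p = 0.0552), and no other member call changed.

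Leaving out 1 array at a time moved the called members from 0 to 3 in HESKOL liver with dexamethasone and from 0 to 1 between treated genotypes. Hes1 ranged from −0.94 to −0.50 for averaged dexamethasone and from −0.33 to 0.54 for the difference of effects. Ranges that crossed 0 were Hes2 −0.41 to 0.25 (dexamethasone, wild-type) and −0.12 to 0.20 (untreated genotypes), Hes5 −0.23 to 0.34 (HESKOL), −0.19 to 0.53 (wild-type), −0.42 to 0.30 (difference) and −0.066 to 0.32 (averaged dexamethasone), Hey1 −0.62 to 0.16 (treated genotypes) and −0.092 to 0.30 (averaged genotypes), and Heyl −0.36 to 0.032 (averaged genotypes). Hes6 in HESKOL liver kept an adjusted p between 0.0045 and 0.0698, and Heyl between 0.0039 and 0.0575. Members near background, and 3 arrays a group, limit what can be told.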
